A study of Homo sapiens with 6 samples.

Results

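The desmosome proteins examined here are DSG2, DSC2, DSC3, JUP, PKP1, PKP2, PKP3, PKP4, DSP and PPL, which were taken by gene symbol from a table of transcript abundances. They are 10 of 27408 genes in the table, with 22 of its 59128 transcripts, and all 10 were present. Messenger RNA was sequenced from PANC-1 and MIA-PaCa2, established human pancreatic cancer cell lines, each overexpressing ESRP1, overexpressing ESRP2 or carrying the control construct that the labels name LPCX. These paralogs, the epithelial splicing regulatory proteins, bind RNA and influence which exons epithelial cells use, and the labels ask what they do in pancreatic cancer progression. There are 6 libraries, 1 per line and construct, all from cells grown in the same medium with no treatment named. Whether a line with a construct is a pool or 1 clone is not given in the sources used here.

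Desmosomes are spot junctions that tie the intermediate filaments of neighbouring epithelial cells together. Desmogleins (DSG) and desmocollins (DSC) are cadherins that bridge the gap between the cells, the armadillo proteins plakoglobin (JUP) and plakophilin (PKP) bind their tails, and the plakin desmoplakin (DSP) links the plaque to keratin or vimentin filaments. Carcinomas often lose parts of the junction, and desmosomal cadherins and plakophilins exist as families whose members differ between simple and stratified epithelia.

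Levels are TPM, which take account of transcript length and are relative to the whole library, so genes can be compared with each other. Read numbers cannot be had from TPM, which leaves the depth unknown and the values without counting intervals. The constructs matched the labels: ESRP1 stood at 491 TPM in PANC-1 ESRP1 and 367 TPM in MIA-PaCa2 ESRP1, against at most 0.261 TPM in the other 4 libraries. ESRP2 stood at 308 TPM in PANC-1 ESRP2 and 197 TPM in MIA-PaCa2 ESRP2. The other PANC-1 libraries held 37.7 TPM of ESRP2 with ESRP1 and 34.8 TPM with LPCX, while the other MIA-PaCa2 libraries held 0.106 and 0.0704 TPM. Of the ductal epithelial markers, KRT8, KRT18, KRT19 and SOX9 were at 99.7 TPM or more in every library, KRT7 was at 2.00 TPM or less, and EPCAM was at 24.3 to 28.2 TPM in PANC-1 and listed at 0 in MIA-PaCa2. Acinar, endocrine and endothelial markers did not pass 2.85 TPM. Among the others, CD68, of the leukocyte list, was at 295 to 364 TPM in PANC-1 and 20.5 to 23.3 TPM in MIA-PaCa2, and COL1A1, of the fibroblast list, was at 66.4 to 108 TPM in PANC-1 and 0.449 to 0.723 TPM in MIA-PaCa2. The leukocyte genes PTPRC and CD3E stayed at or under 0.563 TPM, and the fibroblast genes DCN and PDGFRB at or under 0.275 TPM. TP63, of the stratified epithelium list, was at 0.116 to 0.288 TPM in PANC-1 and 64.2 to 110 TPM in MIA-PaCa2.

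3 alternative stretches of the members are shown, because splicing is what the ESRP proteins are known to control. Sequences are the coding strand of GENCODE release 29 transcripts on GRCh38. Of the 46-base DSC2 exon the first 36 bases are printed, chr18:31068309-31068344 on the minus strand. They are the last coding bases of the shorter desmocollin 2 form, with its stop codon in capitals. The DSP stretch, chr6:7579743-7579802 on the plus strand, surrounds the 5′ splice site used in the short desmoplakin form, with the GT that starts the removed part in capitals. The PKP4 exon, chr2:158676739-158676867 on the plus strand, is in capitals between 15 bases of each neighbouring exon.
DSC2 exon, first part: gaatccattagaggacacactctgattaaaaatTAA
DSP alternative splice site: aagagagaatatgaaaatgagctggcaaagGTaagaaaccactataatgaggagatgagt
PKP4 exon: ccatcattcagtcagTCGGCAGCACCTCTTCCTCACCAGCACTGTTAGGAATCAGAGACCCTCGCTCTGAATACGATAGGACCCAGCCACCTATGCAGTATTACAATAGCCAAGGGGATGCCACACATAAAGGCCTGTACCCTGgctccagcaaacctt

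Promoter windows of 300 bases, from 250 bases before to 50 bases after a start, were available from RefSeq (GRCh38.p14) for 7 of the 10 genes, in 10 windows. PPL, PKP2 and PKP3 had no entry. The windows of the genes with an E2 box are printed, since this motif is known to be bound by the repressors ZEB1 and SNAI1 at epithelial promoters. The box, CAGGTG or on the other strand CACCTG, is in capitals, and 4 of the 10 windows held it, against 20.6% of 35116 windows of all genes. DSP, chr6:7541421-7541720 on the plus strand, had boxes 178 and 85 bases before the start. JUP, chr17:41785927-41786226 on the minus strand, had them at 54 and 43 bases, and its other window had none. DSC2, chr18:31102372-31102671 on the minus strand, had 1 at 156 bases, and its other window had none. DSG2, chr18:31497927-31498226 on the plus strand, had them at 232 and 116 bases. The grainyhead motif AACCGGTT, which reads the same on both strands, was in none of the 10 windows and in 0.134% of all windows.
DSP promoter: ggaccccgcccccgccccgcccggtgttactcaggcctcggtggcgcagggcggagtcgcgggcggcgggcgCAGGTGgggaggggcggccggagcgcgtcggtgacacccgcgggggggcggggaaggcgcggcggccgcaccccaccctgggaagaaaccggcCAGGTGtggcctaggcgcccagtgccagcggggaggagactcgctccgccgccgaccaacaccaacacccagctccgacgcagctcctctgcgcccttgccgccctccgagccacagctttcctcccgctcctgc
JUP promoter: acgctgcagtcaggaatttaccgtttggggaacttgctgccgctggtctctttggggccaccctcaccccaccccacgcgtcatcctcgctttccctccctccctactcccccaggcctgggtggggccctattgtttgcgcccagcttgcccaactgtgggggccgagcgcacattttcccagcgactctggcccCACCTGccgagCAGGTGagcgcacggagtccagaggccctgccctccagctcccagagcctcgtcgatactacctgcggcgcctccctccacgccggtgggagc
DSC2 promoter: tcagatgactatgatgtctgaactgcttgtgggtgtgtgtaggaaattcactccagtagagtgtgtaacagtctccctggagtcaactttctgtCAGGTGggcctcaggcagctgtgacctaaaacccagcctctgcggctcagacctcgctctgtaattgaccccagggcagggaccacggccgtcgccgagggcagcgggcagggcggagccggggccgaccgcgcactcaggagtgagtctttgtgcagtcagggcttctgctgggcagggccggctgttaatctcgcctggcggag
DSG2 promoter: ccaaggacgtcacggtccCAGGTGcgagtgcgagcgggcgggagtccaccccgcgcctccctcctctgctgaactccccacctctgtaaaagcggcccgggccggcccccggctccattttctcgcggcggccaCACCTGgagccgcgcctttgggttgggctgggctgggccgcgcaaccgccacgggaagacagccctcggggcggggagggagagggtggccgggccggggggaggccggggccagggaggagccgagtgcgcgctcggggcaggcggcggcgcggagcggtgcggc

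The 2 lines held different sets of desmosome transcripts. The 10 genes summed to 523, 508 and 416 TPM in PANC-1 ESRP1, ESRP2 and LPCX, and to 203, 181 and 162 TPM in MIA-PaCa2 ESRP1, ESRP2 and LPCX. In PANC-1 6 or 7 members reached 5 TPM, and in MIA-PaCa2 5 did. JUP, PPL and PKP4 made up most of the PANC-1 sum, while PKP3 and PKP4 led in MIA-PaCa2. There PKP3 and PKP4 held 38.1% and 36.1% of the sum with ESRP1, 31.2% and 39.0% with ESRP2, and 36.1% and 37.7% with LPCX.

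**Figure D1:**
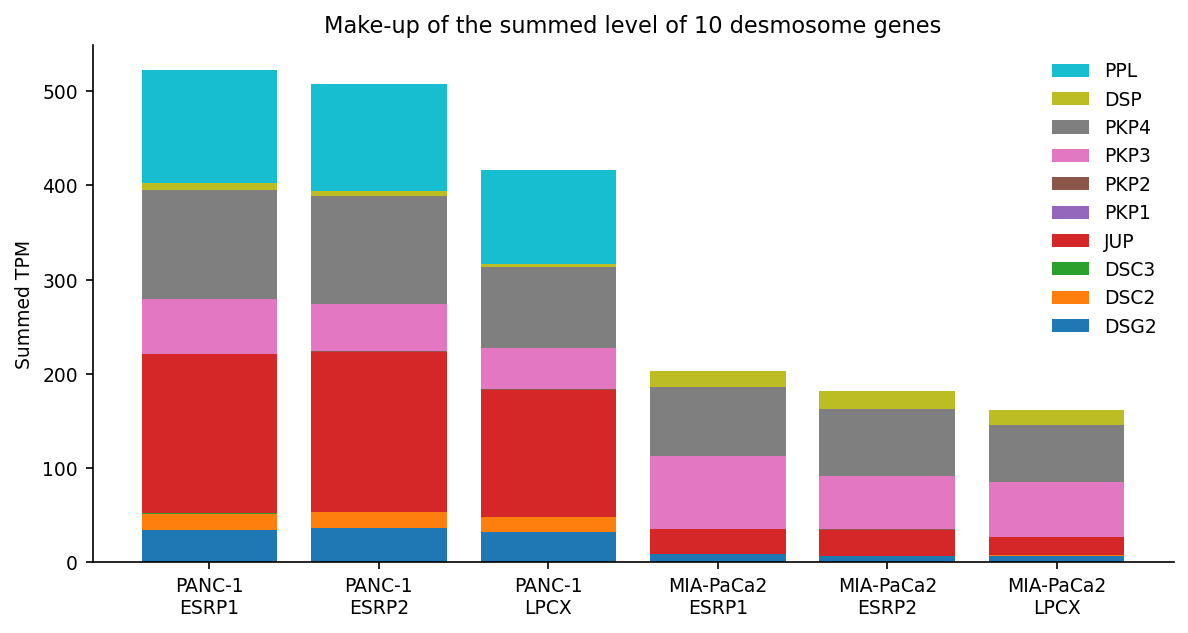
Summed TPM of the 10 desmosome genes, 1 stacked bar per library and 1 colour per gene. PANC-1 bars reach 416 to 523 TPM and MIA-PaCa2 bars 162 to 203 TPM, and the PPL block is visible in PANC-1 only.

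Of the cadherins, DSG2, the desmoglein of simple epithelia, was at 34.8, 36.3 and 31.8 TPM in PANC-1 ESRP1, ESRP2 and LPCX, and at 9.23, 6.35 and 7.29 TPM in MIA-PaCa2 ESRP1, ESRP2 and LPCX. All PANC-1 libraries lay above all MIA-PaCa2 libraries. DSC2, its usual desmocollin partner, was at 16.9, 17.4 and 16.2 TPM in PANC-1 ESRP1, ESRP2 and LPCX, and at 0.0618, 0.0497 and 0.0689 TPM in MIA-PaCa2. The MIA-PaCa2 libraries thus held almost no DSC2, and the lines did not overlap. DSC3, a desmocollin of stratified epithelia, was at 0.412, 0.227 and 0.430 TPM in PANC-1, and at 0.111, 0.0696 and 0.0390 TPM in MIA-PaCa2. It was under 1 TPM throughout and was not tested.

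Of the armadillo proteins, JUP, plakoglobin, was at 169, 169.5 and 135 TPM in PANC-1 ESRP1, ESRP2 and LPCX, and at 25.6, 28.3 and 19.3 TPM in MIA-PaCa2 ESRP1, ESRP2 and LPCX. The lines did not overlap, and in each line LPCX was the lowest. PKP3, a plakophilin of both simple and stratified epithelia, was at 57.8, 50.8 and 43.4 TPM in PANC-1, and at 77.4, 56.7 and 58.4 TPM in MIA-PaCa2. The lines overlapped, since PANC-1 ESRP1 lay above MIA-PaCa2 ESRP2. PKP4, a relative of the plakophilins found in desmosomes and adherens junctions, was at 116, 114 and 86.3 TPM in PANC-1, and at 73.3, 70.8 and 60.96 TPM in MIA-PaCa2. The lines did not overlap, and LPCX was the lowest in each. PKP1, a plakophilin of stratified epithelia, was at 0.0298, 0.0596 and 0.112 TPM in PANC-1, and at 0.0747 TPM in MIA-PaCa2 ESRP1 and listed at 0 in MIA-PaCa2 ESRP2 and LPCX. PKP2, the plakophilin of heart and many simple epithelia, was at 0.695, 0.339 and 0.670 TPM in PANC-1, and at 0.397, 0.527 and 0.190 TPM in MIA-PaCa2. Both were under 1 TPM in every library, so of the plakophilins PKP3 and PKP4 alone passed 1 TPM.

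Of the plakins, DSP was at 7.30, 5.20 and 3.43 TPM in PANC-1 ESRP1, ESRP2 and LPCX, and at 16.9, 18.6 and 15.4 TPM in MIA-PaCa2 ESRP1, ESRP2 and LPCX. All MIA-PaCa2 libraries lay above all PANC-1 libraries, the opposite order to DSG2 and JUP. PPL, periplakin, which binds filaments at the desmosomal plaque and the cell membrane, was at 120, 114 and 98.9 TPM in PANC-1, and at 0.128, 0.151 and 0.129 TPM in MIA-PaCa2. It was among the most abundant members in PANC-1 and nearly missing in MIA-PaCa2. In the LPCX libraries the order of levels was JUP, PPL, PKP4, PKP3, DSG2, DSC2 and DSP in PANC-1, and PKP4, PKP3, JUP, DSP and DSG2 in MIA-PaCa2. Over the 3 libraries of a line, the ranges of neighbours in this order overlapped for PPL and PKP4 in PANC-1 and for PKP4 and PKP3 in MIA-PaCa2, and not for the others.

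**Figure D2:**
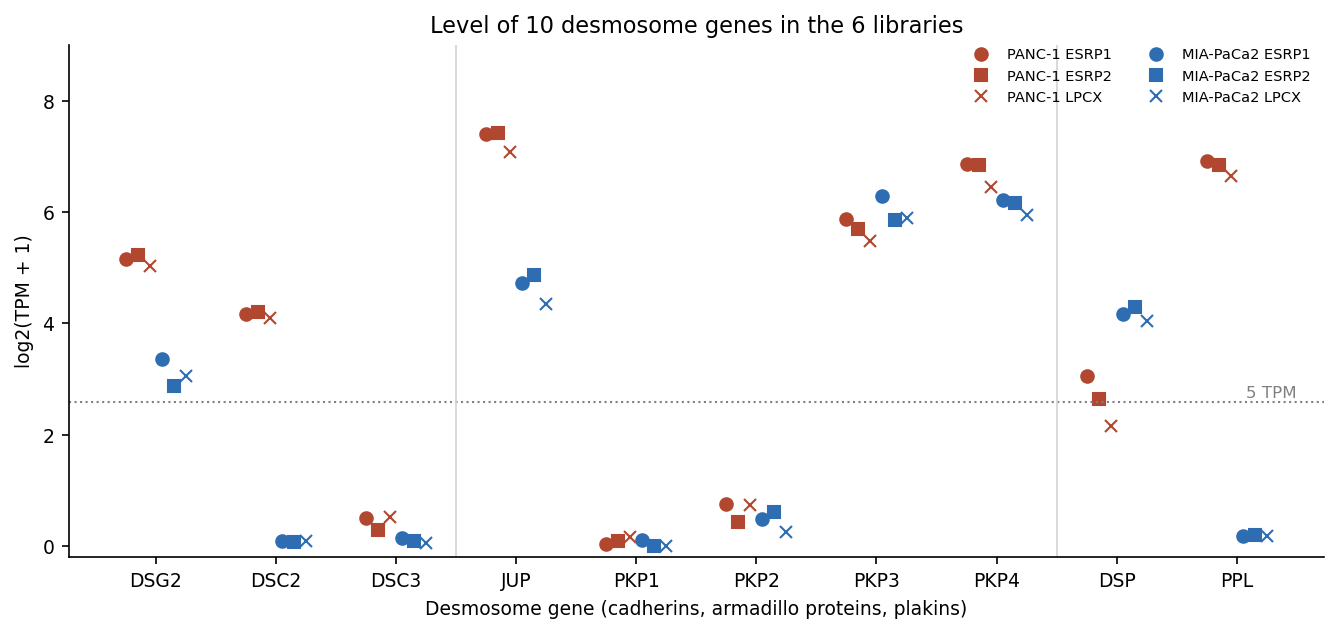
Level of each gene as log2(TPM + 1) in the 6 libraries, with PANC-1 in red and MIA-PaCa2 in blue, the construct as the marker and a dotted line at 5 TPM. DSC2 and PPL are high in PANC-1 and near 0 in MIA-PaCa2, DSP is higher in MIA-PaCa2, and DSC3, PKP1 and PKP2 lie near 0 in both lines.

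The comparison of PANC-1 with MIA-PaCa2 used the constructs as replicates of a line in limma on log2(TPM + 1), across the 11829 genes that reached 5 TPM in 2 or more libraries. The labels do not say that constructs of a line came from separate cultures, so the p-values measure the spread between these libraries only. 7 of the 10 members were tested, and DSC2 and PPL entered only through PANC-1. Of the other 5, JUP, DSG2 and PKP4 were higher and DSP and PKP3 lower in PANC-1 at an adjusted p under 0.05. Of all genes 43.1% were called higher and 35.6% lower, so the count itself is no result about the members.

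PPL differed by 6.62 (SE 0.0915) and DSC2 by 4.07 (SE 0.114) on the log2(TPM + 1) scale, which understates the change of genes near 0. Since the filter kept them for their PANC-1 levels, these values are a description with no test. JUP differed by 2.65 (SE 0.0651, adjusted p = 3.06e-06 by limma), and DSG2 by 2.04 (SE 0.117, adjusted p = 3.62e-05 by limma). PKP4 was higher by 0.61 (SE 0.0635, adjusted p = 0.000346 by limma). DSP was lower in PANC-1 by a log2 difference of -1.55 (SE 0.161, adjusted p = 0.000336 by limma). PKP3 differed by -0.33 (SE 0.0762, adjusted p = 0.00924 by limma), a call that was lost without the PANC-1 ESRP1 library (-0.29, adjusted p = 0.0588 by limma), without the MIA-PaCa2 ESRP1 library (-0.29, adjusted p = 0.0586 by limma) and with the construct left out of the model (adjusted p = 0.0683 by limma). The exact two-sided permutation test of 3 against 3 libraries cannot go below 0.1, which it gave for JUP, DSG2, PKP4 and DSP, and it gave 0.2 for PKP3.

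The other junction genes are given by list, and their counts are to be read beside the 43.1% of all genes called higher and the 35.6% called lower. Of 7 other desmosome genes, 2 were tested and both were higher in PANC-1. PERP, a membrane protein of desmosomes, was at 707, 751 and 569 TPM in PANC-1 ESRP1, ESRP2 and LPCX, and at 87.2, 65.8 and 64.1 TPM in MIA-PaCa2. EVPL, envoplakin, the partner of periplakin, was at 49.9, 48.5 and 41.0 TPM in PANC-1, and at 40.3, 42.8 and 33.6 TPM in MIA-PaCa2, so the lines overlapped and it was present where PPL was nearly missing (0.25, SE 0.0612, adjusted p = 0.0112 by limma). DSG1, DSG3, DSG4, DSC1 and CDSN did not reach 0.3 TPM. Of the filament genes, 2 of 6 tested were higher and 4 lower in PANC-1. Of the keratins, KRT8 (-1.39, SE 0.0631) and KRT18 (-1.16, SE 0.0726) were lower and KRT19 (0.68, SE 0.138) was higher in PANC-1. The linker PLEC had the highest difference of the list (0.74, SE 0.0702). Of the adherens partners and armadillo relatives, 2 of 5 tested were higher and 2 lower. E-cadherin, CDH1, was at 8.59, 6.98 and 3.89 TPM in PANC-1 ESRP1, ESRP2 and LPCX, and at 0.112, 0.173 and 0.157 TPM in MIA-PaCa2, and CTNNA1 had the lowest difference (-0.51, SE 0.0790). Of 14 desmosome regulators, 5 were higher and 6 lower, from the kinase gene PRKCA (2.89, SE 0.0973) to the galectin gene LGALS3 (-2.41, SE 0.0528). Of the transcription factors, 3 of 5 tested were higher and 1 lower, with differences from 3.70 for the grainyhead factor GRHL3 (SE 0.154) to -6.13 for TP63 (SE 0.131). Of the repressors named with the E2 box, ZEB1 differed by -0.16 (SE 0.0787, adjusted p = 0.108 by limma), and SNAI1 by 0.67 (SE 0.107), at 6.18 to 6.54 TPM in PANC-1 and 3.32 to 3.87 TPM in MIA-PaCa2. CDH1, GRHL3, SNAI1 and PRKCA passed the filter only through PANC-1 and TP63 only through MIA-PaCa2, so these differences are a description and support nothing. Of the mesenchymal markers, VIM was at 4143 to 4738 TPM in PANC-1 and 5523 to 5620 TPM in MIA-PaCa2, and FN1 was at 0.716 TPM or less in all 6 libraries. N-cadherin, CDH2, was at 51.8, 47.2 and 32.4 TPM in PANC-1 ESRP1, ESRP2 and LPCX, and at 0.0212 TPM in MIA-PaCa2 ESRP1 and listed at 0 in MIA-PaCa2 ESRP2 and LPCX. The levels of EPCAM, CDH2, TP63, CD68 and COL1A1 moved with the line too. Within PANC-1 CDH2 stood above LPCX with ESRP1 and ESRP2 (log2 ratios of 0.66 and 0.53). So did CDH1 (0.97 and 0.71), COL1A1 (0.69 and 0.48), EPCAM (0.18 and 0.20) and CD68 (0.09 and 0.30). The part of these genes in the members' differences was not tested.

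**Figure D3:**
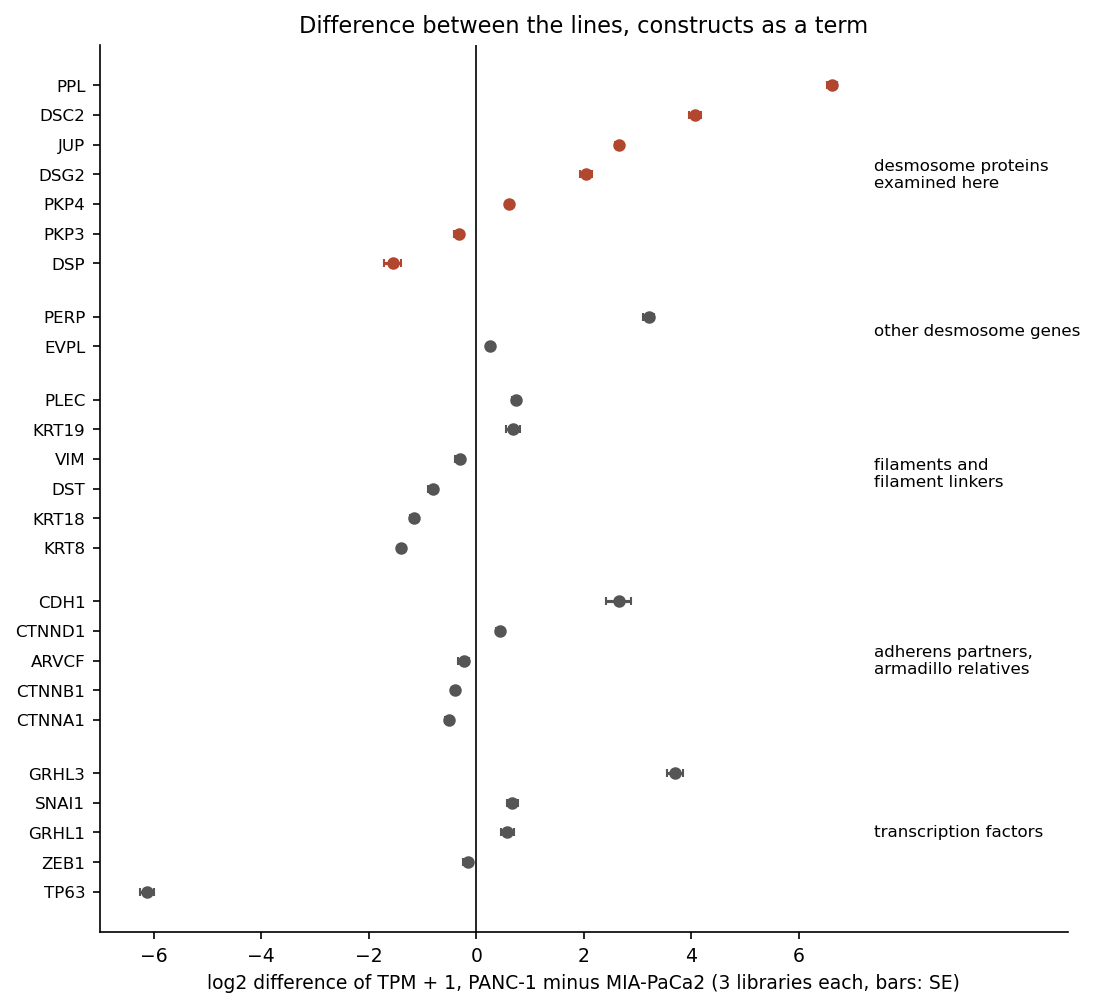
Log2 difference of TPM + 1, PANC-1 minus MIA-PaCa2, with its standard error, for the 7 tested members in red and tested genes of 4 other lists in grey. PPL, DSC2, JUP, DSG2 and PKP4 lie right of 0, and PKP3 and DSP left of it.

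ESRP1 was compared with LPCX over both lines, with the line as a term, to see whether overexpression changed the members. All 7 tested members had a positive difference and none was called, against 0.00845% of all genes called, which is the ESRP1 gene alone. The fit had 2 residual degrees of freedom, so the lack of a call does not show that these members were unchanged. Their median was 0.34, against 0.06 over all genes, of which 68.3% were positive. PKP3 differed by 0.40 (SE 0.0933), JUP by 0.36 (SE 0.0797), PKP4 by 0.34 (SE 0.0778) and DSP by 0.52 (SE 0.197), each with an adjusted p of 0.658 by limma. Their unadjusted p was under 0.05, which held for 820 of the 11829 genes. The DSP value was 0.18 without PANC-1 ESRP1, 0.26 without PANC-1 LPCX and 0.85 without MIA-PaCa2 ESRP1. DSG2 differed by 0.22 (SE 0.143), PPL by 0.14 (SE 0.112) and DSC2 by 0.03 (SE 0.1395). PPL and DSC2 were at 0.151 TPM or less in MIA-PaCa2. Their values over both lines, here and for ESRP2, thus come mainly from PANC-1, though they count among the positive members.

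ESRP2 against LPCX gave 7 positive differences and no call, against 0.0169% of all genes called. The ESRP2 gene itself was not among the calls (5.32, SE 1.107, adjusted p = 0.329 by limma). Its LPCX level was 34.8 TPM in PANC-1 and 0.0704 TPM in MIA-PaCa2, so the lines differed in this contrast. The lack of a call therefore does not show that a member was unchanged. The median was 0.12 for the members and 0.06 over all genes, of which 65.1% were positive. The member median is the value of PPL, which was at 0.151 TPM or less in MIA-PaCa2. JUP differed by 0.43 (SE 0.0797) and PKP4 by 0.30 (SE 0.0778), both with an adjusted p of 0.329 by limma. Their unadjusted p was under 0.05, which held for 1634 genes. DSP differed by 0.37 (SE 0.197), or 0.11 without PANC-1 LPCX and 0.62 without MIA-PaCa2 LPCX, PPL by 0.12 (SE 0.112), PKP3 by 0.09 (SE 0.0933), DSC2 by 0.04 (SE 0.1395) and DSG2 by 0.01 (SE 0.143). The DSG2 value turned to -0.05 and the DSC2 value to -0.00038 under median ratio scaling of the libraries, and the DSC2 value for ESRP1 to -0.0086. Both comparisons share the LPCX libraries.

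ESRP1 against ESRP2 gave no call among the members either, against 0.00845% of all genes, again the ESRP1 gene. Here too the lack of a call does not show that a member was the same with both. The median of the 7 was 0.04, against -0.0027 over all genes. PKP3 was the member with the largest difference, 0.31 (SE 0.0933, unadjusted p = 0.0181 and adjusted p = 0.9525 by limma), and 497 genes had an unadjusted p under 0.05. The other 6 lay between -0.07 for JUP and 0.21 for DSG2.

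Within a line there is 1 library per construct, so differences are given without a test, as log2 ratios of TPM + 1, for genes that reached 5 TPM with either construct. None of the 7 members compared in PANC-1 reached 2-fold with ESRP1 or ESRP2, against 1.51% and 1.96% of all genes, and none of the 5 compared in MIA-PaCa2 did, against 1.28% and 1.62%. DSP had the largest ratio, 0.91 with ESRP1 in PANC-1, and 0.48 with ESRP2 there, against 0.12 and 0.25 in MIA-PaCa2. It passed 2-fold with a pseudocount of 0.1 TPM (1.07), since its LPCX level in PANC-1 was 3.43 TPM. JUP stood at 0.32 and 0.33 in PANC-1 and 0.39 and 0.53 in MIA-PaCa2 with ESRP1 and ESRP2. PKP4 stood at 0.42 and 0.39 in PANC-1 and 0.26 and 0.21 in MIA-PaCa2. JUP, PKP4 and DSP were positive in all 4 comparisons, 3 of the 5 members compared in all 4, and 31.8% of 9798 genes were too. The 2 comparisons of a line share its LPCX library.

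PKP3 stood at 0.40 and 0.22 in PANC-1 and at 0.40 and -0.04 in MIA-PaCa2 with ESRP1 and ESRP2. DSG2 stood at 0.13 and 0.19 in PANC-1 and at 0.30 and -0.17 in MIA-PaCa2. These were the only negative ratios, both with ESRP2 in MIA-PaCa2. PPL and DSC2 could be compared in PANC-1 only, where all 4 ratios were positive and DSC2 with ESRP1 was 0.06, or -0.0053 after median ratio scaling. The median over all genes was 0.085 and 0.096 in PANC-1 and 0.040 and 0.046 in MIA-PaCa2.

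**Figure D4:**
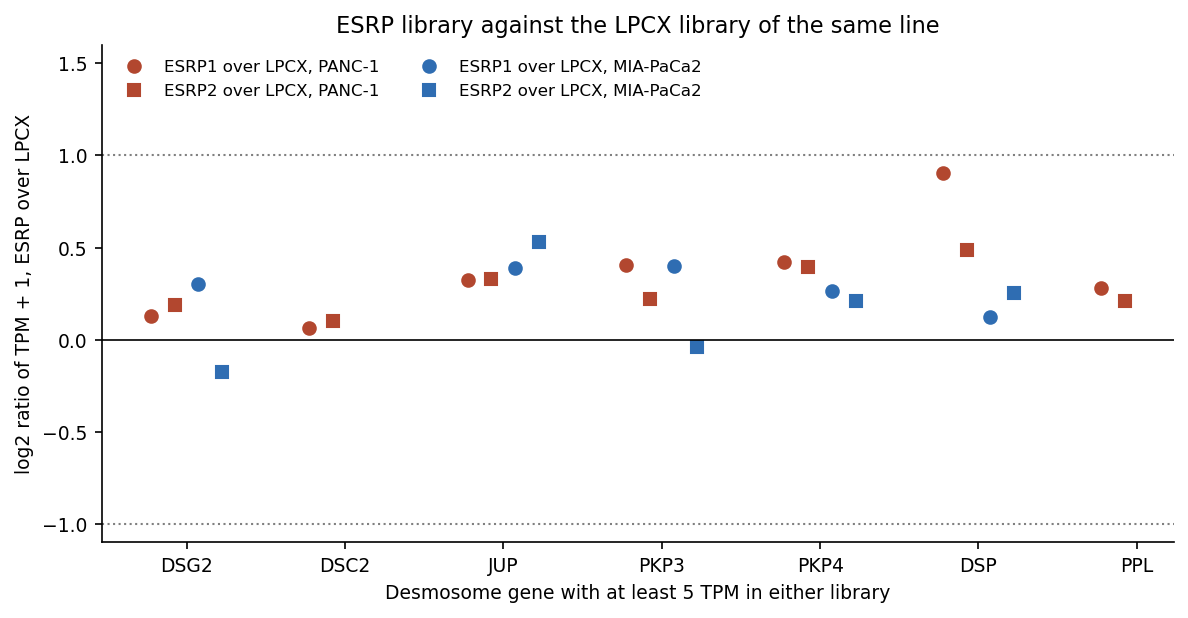
Log2 ratio of TPM + 1 of an ESRP library over the LPCX library of the same line, with dotted lines at 2-fold. The 24 points lie between -0.17 and 0.91, and the negative ones are DSG2 and PKP3 with ESRP2 in MIA-PaCa2.

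Of the lists beside the members, no gene was called with ESRP1 or ESRP2 over both lines except the ESRP1 gene itself with ESRP1. Of the adherens partners 4 of 5 tested were positive with ESRP1 and 4 of 5 with ESRP2, of the regulators 10 of 14 with each. Of all genes 68.3% were positive with ESRP1 and 65.1% with ESRP2, so these counts are no result about the lists. GRHL1, a grainyhead factor known in mouse to act on desmosomal cadherin genes, was at 11.6, 12.0 and 6.68 TPM in PANC-1 ESRP1, ESRP2 and LPCX, and at 8.79, 8.19 and 3.21 TPM in MIA-PaCa2. Both ESRP libraries lay above LPCX in each line, with a difference of 0.97 for ESRP1 (SE 0.151, adjusted p = 0.598 by limma) and 0.94 for ESRP2 (SE 0.151, adjusted p = 0.329 by limma). Other list genes went other ways. PRKCA was lower with ESRP1 (-0.26, SE 0.119) and with ESRP2 (-0.68, SE 0.119). TP63 was lower with ESRP2 (-0.30, SE 0.160) and higher with ESRP1 (0.17, SE 0.160). DST was higher with ESRP2 (0.46, SE 0.0974) and lower with ESRP1 (-0.13, SE 0.0974).

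Transcript shares, the percentage of a gene's TPM in each transcript, moved by less than 10 points in every member compared. The largest move was 9.59 points, for JUP with ESRP1 in PANC-1. DSP was not compared in PANC-1, where it was at 3.43 TPM with LPCX. No member of 4 moved with ESRP1 or ESRP2 in PANC-1 (DSC2, JUP, PKP3 and PKP4), against 15.1% and 16.6% of all genes compared, and none of 4 in MIA-PaCa2 (DSP, JUP, PKP3 and PKP4), against 17.1% and 19.2%. The limma fit on log2 odds over 12965 transcripts held 3 members, JUP, PKP3 and PKP4, and neither DSP nor DSC2, which were under 5 TPM in some library. It called none of their transcripts with ESRP1, ESRP2 or between ESRP1 and ESRP2, against 0.00771%, 0.0% and 0.0% of transcripts, and 740, 824 and 582 transcripts had an unadjusted p under 0.05.

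JUP has 2 transcripts in the table, and NM_002230 held 42.0%, 37.3% and 32.4% in PANC-1 ESRP1, ESRP2 and LPCX, and 39.1%, 41.4% and 34.9% in MIA-PaCa2 ESRP1, ESRP2 and LPCX. LPCX had the lowest share in each line. The log2 odds differed by 0.41 with ESRP1 (SE 0.223, adjusted p = 0.925 by limma) and by 0.34 with ESRP2 (SE 0.223, adjusted p = 0.831 by limma). How the 2 JUP transcripts differ was not analysed here.

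Transcript odds could be compared between the lines for JUP, PKP3 and PKP4, and 1 PKP3 transcript was called. NM_001303029 held 12.9%, 15.4% and 13.9% in PANC-1 ESRP1, ESRP2 and LPCX, and 48.6%, 45.9% and 45.9% in MIA-PaCa2 ESRP1, ESRP2 and LPCX, and the rest was NM_007183. The lines did not overlap, with a log2 odds difference of -2.35 (SE 0.189, adjusted p = 0.0072 by limma), and 17.3% of all transcripts were called in this comparison. The adjusted p by limma was 0.0458 without PANC-1 ESRP1, 0.0432 without PANC-1 ESRP2 and 0.0392 without PANC-1 LPCX, near the 0.05 limit. Both PKP3 transcripts are linked to the same GENCODE transcript, so what sets them apart was not analysed here.

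PKP4 had 3 transcripts of at least 10%. NM_001005476 held 45.1% to 46.2% in PANC-1 and 47.8% to 51.2% in MIA-PaCa2. NM_001304971 held 36.1% to 38.6% in PANC-1 and 29.7% to 32.3% in MIA-PaCa2, and NM_001304969 held 9.71% to 14.2% in PANC-1 and 11.3% to 17.8% in MIA-PaCa2. None of the 3 was called between the lines. Transcripts linked by GENCODE to a form with the exon printed above made up 17.7%, 16.1% and 17.6% in PANC-1 ESRP1, ESRP2 and LPCX, and 19.0%, 17.7% and 22.5% in MIA-PaCa2 ESRP1, ESRP2 and LPCX. Forms without this exon were the majority in all 6 libraries.

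DSP is made as a long form, NM_004415, and a short form, NM_001008844, which lacks 1797 coding bases of the rod from the splice site printed above. The long form held 73.4%, 91.8% and 76.8% in PANC-1 ESRP1, ESRP2 and LPCX, and 80.5%, 76.4% and 76.5% in MIA-PaCa2 ESRP1, ESRP2 and LPCX. The rest was the short form and another transcript, NM_001319034. The latter held 3.42% in PANC-1 ESRP1, 3.05% in MIA-PaCa2 ESRP1 and 1.24% in MIA-PaCa2 LPCX, and was listed at 0 elsewhere. PANC-1 ESRP2 stood apart, at a DSP level of 5.20 TPM, and PANC-1 was not compared for DSP at the 5 TPM minimum. DSC2 in PANC-1 had the shorter form with the printed exon, NM_004949, at 33.4%, 46.1% and 39.5% in ESRP1, ESRP2 and LPCX, and the longer form, NM_024422, for the rest. ESRP1 lay below LPCX and ESRP2 above it.

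**Figure D5:**
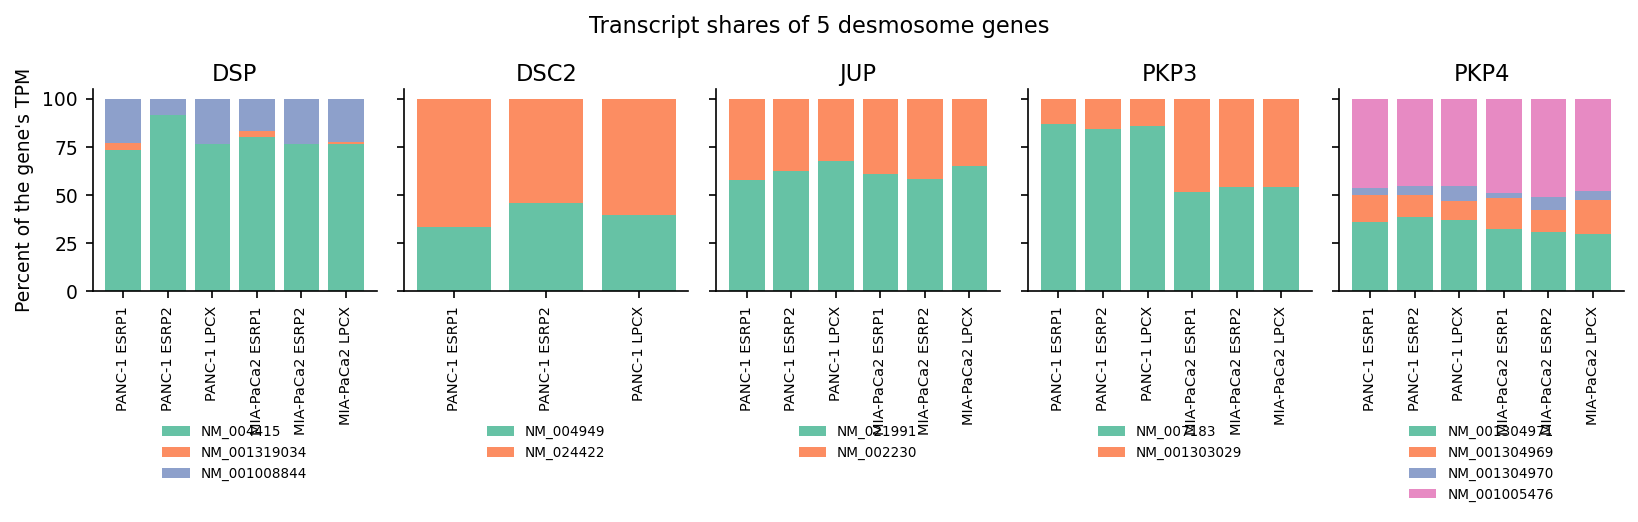
Percentage of a gene's TPM in each RefSeq transcript, 1 stacked bar per library, with DSC2 in PANC-1 only. PKP3 differs between PANC-1 and MIA-PaCa2, and the JUP share of NM_002230 is 32.4% to 42.0% over the 6 libraries.

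By Pearson correlation of log2(TPM + 1) over the 6 libraries, the genes most like DSP were CTCF (r = 0.9992), EIF4H (r = 0.9990) and C2CD4C (r = 0.9986), and 60 genes had r above 0.99. Those most like JUP were MICA (r = 0.9997), PLEKHA8P1 (r = 0.9995) and UBAP2 (r = 0.9995), and 1117 genes had r above 0.99. The 6 points fall into 2 lines, with 3 libraries each. The antisense genes DSG2-AS1 and PKP4-AS1 were at 0.420 TPM or less and DSCAS was listed at 0. Whether counting used strand is not given in the sources used here.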

How the data were processed

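A TruSeq mRNA kit was used on total RNA, per the labels' protocols. Salmon with GRCh38 (hg38) was used, per the submitters' processing notes, with no version or annotation stated there. In the table that the authors deposited, RefSeq transcripts are given in TPM, and 8664 of its 67792 lines repeat a transcript and were dropped. TPM were summed by gene symbol. Of the MIA-PaCa2 columns, the ESRP2 one carries the name ESRP12 and the LPCX one a misspelt line, so these were assigned by elimination.

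limma 3.58.1 (R 4.3.3) with a trend was fitted to log2(TPM + 1), with line and construct as terms and 2 residual degrees of freedom, and Benjamini-Hochberg adjustment over all genes at 0.05. Transcript odds used a pseudocount of 0.5 TPM, genes with at least 5 TPM in every library and transcripts of at least 10%. In a gene with 2 transcripts the odds mirror each other and 1 is given. The gene fit was run on simulated data for ESRP1 against LPCX only, and the share of changes it recovered is not given here. RefSeq transcripts were linked to GENCODE release 29 by its own cross-reference, for 20 of 22 member transcripts, which need not be exact matches. All members are named. Between the lines, each list is given with its counts and genes at the ends of its range, and for the constructs only some are given. The members and lists were chosen with earlier results of these data known. Alternatives changed the pseudocount, filter, scaling, trend, block and libraries.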

Additional observations from a re-analysis of the deposited data

Results flagged for a closer look

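With ESRP2, 2 members had ratios of opposite sign in the lines, each as 1 library against 1. How many of all genes did so was not counted. DSG2 had a log2 ratio to LPCX of 0.19 in PANC-1 and -0.17 in MIA-PaCa2. PKP3 had 0.22 in PANC-1 and -0.041 in MIA-PaCa2. In MIA-PaCa2 ESRP2 and LPCX, PKP3 was at 56.7 and 58.4 TPM, and DSG2 at 6.35 and 7.29 TPM, near the 5 TPM minimum. With 1 library per line and construct, the difference between the lines was not tested.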

How the results depend on the processing

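Between the lines, the direction of DSP, JUP, DSG2, PKP4 and PKP3 held under every alternative run. The limma calls of DSP, JUP, DSG2 and PKP4 held too, while PKP3 lost its call in the settings given in its paragraph. The direction of DSC2 and PPL also held, but the filter kept them for their PANC-1 levels, so this is no support. Genes called with ESRP2 numbered 2, and 0 with a pseudocount of 0.1 TPM, a 1 TPM filter or no filter, and 1 without the trend. Without the replicate block 0 genes were called with ESRP1, with ESRP2 and between them. Leaving out 1 library gave 0 to 1 genes with ESRP1, 0 to 29 with ESRP2 and 0 to 32 between them. The 1 transcript called with ESRP1 was lost, leaving 0, without any 1 library or with an odds pseudocount of 0.1 TPM. Between the lines 2238 were called, 207 to 419 without 1 library and 1466 with that pseudocount. In PANC-1 with ESRP1, 1 member, DSP, passed the fold with a pseudocount of 0.1 TPM or at 1.5-fold, and with ESRP2 1 member, DSP, had a moved share at a 1 TPM minimum.

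No difference whose sign turned had been called. With a pseudocount of 0.1 TPM, ESRP2 against LPCX gave -0.0027 for DSG2 and -0.034 for DSC2, and ESRP1 against ESRP2 gave 0.036 for DSC2 and -0.032 for PPL. Median ratio scaling gave -0.051 for DSG2 and -0.00038 for DSC2 with ESRP2, -0.0086 for DSC2 with ESRP1, and -0.0053 for DSC2 with ESRP1 in PANC-1. Leaving out 1 library, ESRP1 against LPCX ranged from -0.023 to 0.076 for DSC2, and ESRP2 against LPCX from -0.22 to 0.23 for DSG2, -0.012 to 0.086 for DSC2 and -0.040 to 0.22 for PKP3. Without a change of sign, leaving out 1 library moved ESRP1 against LPCX to 0.18 to 0.85 for DSP, 0.037 to 0.39 for DSG2 and 0.025 to 0.26 for PPL, ESRP2 against LPCX to 0.11 to 0.62 for DSP and 0.0028 to 0.23 for PPL, and ESRP1 against ESRP2 to 0.18 to 0.44 for PKP3. ESRP1 against ESRP2 ranged from -0.18 to 0.48 for DSP, -0.16 to 0.0092 for JUP, -0.015 to 0.43 for DSG2, -0.056 to 0.034 for DSC2, -0.015 to 0.089 for PKP4 and -0.074 to 0.12 for PPL. Transcript odds with ESRP1 ranged from -0.18 to 0.19 for PKP3 NM_001303029, -0.071 to 0.16 for PKP4 NM_001304971 and -0.24 to 0.64 for PKP4 NM_001304969. With ESRP2 they ranged from -0.070 to 0.23 for PKP3 NM_001303029 and -0.69 to 0.19 for PKP4 NM_001304969. Between ESRP1 and ESRP2 they ranged from -0.12 to 0.26 for JUP NM_002230, -0.26 to 0.12 for PKP3 NM_001303029, -0.16 to 0.079 for PKP4 NM_001304971 and -0.14 to 0.054 for PKP4 NM_001005476. The cause was not tested. Depth is unknown in TPM, so levels under 1 TPM carry no stated precision.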
